A study of Mus musculus with 8 samples.

Results

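The heavy chain variable segments are the Ighv genes, from which each B cell takes a single one to build the antigen-binding part of its antibody heavy chain. The members were all Entrez gene IDs of the count table whose NCBI mouse symbol begins with Ighv and whose counts over the 8 libraries added up to at least 80. This gave 116 of the 120 Ighv IDs in the table, out of 27179 IDs in all. The members just inside the threshold were Ighv1-16 with 98 counts and Ighv5-12-4 with 173 counts in total. Just outside it were Ighv6-7 with 57 and Ighv13-1 with 38 counts. All 116 lie on the minus strand of chromosome 12 and fall into 15 families, named by the first number in the symbol. Family 1 held 59 members, families 5 and 8 held 10 each, and family 2 held 9. All 116 passed the filter on low counts, and 112 had at least 1 count in every library.

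RNA sequencing was done on plasma cells sorted from mouse bone marrow as Blimp1-GFP+ CD138+ cells, where GFP reports the Blimp1 gene and CD138 is a surface protein of plasma cells. The comparison was of 4 groups with 2 libraries each. Blimp1 knockout cells (Blimp1-/-, here Blimp1KO, replicates 1 and 2) were sequenced in batch 1 with wild-type cells (WT, replicates 1 and 2). Xbp1 knockout cells (Xbp1-/-, here Xbp1KO, replicates 1 and 2) were sequenced in batch 2 with WT replicates 3 and 4. Blimp1, encoded by Prdm1, and Xbp1 are transcription factors of the plasma cell programme. The labels give the C57BL/6 strain for these samples, and the sort on Blimp1-GFP is common to all 4 groups. Age, the way the genes were deleted and whether a replicate was 1 animal or a pool are not given in the labels used here. The study calls its replicates biological.

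A heavy chain V segment joins a D and a J segment during B cell development, and the joined exon is spliced to a constant gene such as Ighm or Igha. A plasma cell transcribes its productively rearranged segment at a very high level, so segment counts in bulk RNA follow both how many cells carry a segment and how much RNA each makes. Fewer cells with a segment and less RNA per cell cannot be told apart in these libraries.

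The last 300 bases of the V exons that the results turn on are shown from GENCODE transcripts on GRCm38 (mm10), each read 5′ to 3′ on the minus strand of chromosome 12, together with 2 near-identical copies that limit how far reads can be assigned. Ighv11-2 (chr12:114048241-114048540) and Ighv12-3 (chr12:114366521-114366820) are known in mice from B-1 cells that bind phosphatidylcholine, and Ighv1-72 (chr12:115757984-115758283) is known from the response of C57BL/6 mice to the hapten NP. Ighv11-1 (chr12:113981879-113982178) differs from Ighv11-2 at 4 bases, and Ighv1-62-3 (chr12:115460999-115461298) differs from Ighv1-72 at 3 bases. Capitals mark the bases at which the members of a pair differ. In Ighv12-3 they mark the last TACTGT, the codons for the conserved tyrosine and cysteine near the 3′ end of the V exon.
Ighv11-2: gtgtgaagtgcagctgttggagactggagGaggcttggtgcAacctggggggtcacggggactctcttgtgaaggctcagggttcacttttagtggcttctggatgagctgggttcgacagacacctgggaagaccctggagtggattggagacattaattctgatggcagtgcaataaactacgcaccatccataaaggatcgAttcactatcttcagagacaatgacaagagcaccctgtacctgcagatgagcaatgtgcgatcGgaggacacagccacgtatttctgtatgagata
Ighv11-1: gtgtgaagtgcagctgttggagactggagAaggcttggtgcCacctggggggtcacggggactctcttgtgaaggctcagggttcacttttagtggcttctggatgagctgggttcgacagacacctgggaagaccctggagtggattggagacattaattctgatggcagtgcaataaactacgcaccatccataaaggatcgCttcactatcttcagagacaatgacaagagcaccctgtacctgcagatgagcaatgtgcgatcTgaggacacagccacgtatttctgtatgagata
Ighv1-72: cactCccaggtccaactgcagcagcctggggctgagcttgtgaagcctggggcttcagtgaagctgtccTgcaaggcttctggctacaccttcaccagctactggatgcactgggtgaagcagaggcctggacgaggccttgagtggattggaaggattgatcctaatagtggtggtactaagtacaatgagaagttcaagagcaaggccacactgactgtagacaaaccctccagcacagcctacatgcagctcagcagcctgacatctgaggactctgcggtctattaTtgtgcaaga
Ighv1-62-3: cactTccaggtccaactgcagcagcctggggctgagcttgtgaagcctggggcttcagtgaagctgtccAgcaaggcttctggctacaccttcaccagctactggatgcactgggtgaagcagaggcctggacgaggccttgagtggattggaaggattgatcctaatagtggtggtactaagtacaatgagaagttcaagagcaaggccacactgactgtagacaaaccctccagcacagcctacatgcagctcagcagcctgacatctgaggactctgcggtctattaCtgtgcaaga
Ighv12-3: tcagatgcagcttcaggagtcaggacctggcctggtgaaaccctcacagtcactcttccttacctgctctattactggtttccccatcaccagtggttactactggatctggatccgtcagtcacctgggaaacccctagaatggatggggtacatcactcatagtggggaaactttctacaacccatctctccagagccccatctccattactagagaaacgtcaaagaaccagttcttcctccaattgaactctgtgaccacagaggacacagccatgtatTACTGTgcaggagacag

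Similarity of this kind was common among the members. Of the 108 members with a GENCODE V exon, 14 had a neighbour of at least 98% identity. Pairs within a family had a median identity of 85.2%, with a range of 70.8% to 100%, against 60.3% between families. Ighv1-62-2 and Ighv1-71 had identical V exons, so their separate counts are uncertain. The letters TACTGT, searched on the coding strand only, stood in the last 40 bases of 77 of the 108 exons, which is 71.3%. How reads that fit several segments were counted is not given in the sources used here.

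The libraries held between 44012152 and 145411827 counts, of which 372693 to 9866669 fell on the members. Prdm1, the targeted gene of the Blimp1KO cells, had 243 and 176 CPM (counts relative to library size, scaled by edgeR's TMM factors) in Blimp1KO libraries, against 301 and 306 CPM in WT libraries of batch 1. Xbp1 had 1302 and 1105 CPM in Xbp1KO libraries, against 2129 and 2203 CPM in WT libraries of batch 2. Neither value passed the edgeR test with Benjamini-Hochberg (BH) adjustment (adjusted p = 0.401 for Prdm1 in Blimp1KO and 0.0939 for Xbp1 in Xbp1KO), and counts over a whole gene do not show whether a deleted exon is missing. All 10 plasma cell markers were present in all 8 libraries, Sdc1 (CD138) at 309 to 639 CPM. The list had 0 calls in Blimp1KO and 1 in Xbp1KO: Mzb1, a protein of the endoplasmic reticulum that helps antibody assembly, had 279 and 271 CPM in Xbp1KO libraries, against 1128 and 1005 CPM in WT libraries of batch 2 (log2 fold change -1.96 ± 0.29, edgeR adjusted p = 0.012). The summed level of 10 neutrophil and monocyte markers was 2.43 CPM in Xbp1KO replicate 1 and 1150 CPM in replicate 2, against 5.34 CPM in WT replicate 3 and 489 CPM in WT replicate 4. In batch 1 it was 504 and 233 CPM in Blimp1KO libraries, against 306 and 370 CPM in WT libraries. Erythroid and megakaryocyte markers (9 of 10 in the table) summed to 11.5 and 1075 CPM in Xbp1KO libraries, against 35.5 and 336 CPM in WT libraries of batch 2, and to 36.2 and 171 CPM in Blimp1KO libraries, against 36.7 and 176 CPM in WT libraries of batch 1. Within batch 2, Xbp1KO replicate 1 and WT replicate 3 were thus low, and Xbp1KO replicate 2 and WT replicate 4 high, in both lists. Counts of called members are also given without each of these pairs, which leaves 1 library in each group of batch 2, assumed to vary like the other groups.

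Heavy chain V counts were lower in both knockouts than in WT of the same batch, and by far more in Xbp1KO. Members took 4.43% and 3.11% of all counts in Blimp1KO libraries, against 5.56% and 6.62% in WT libraries of batch 1. In Xbp1KO libraries they took 0.974% and 0.847%, against 6.79% and 6.73% in WT libraries of batch 2. Neither pair of groups overlapped. The mean was 3.77% ± 0.938 in Blimp1KO and 6.09% ± 0.746 in WT of batch 1, and 0.910% ± 0.0897 in Xbp1KO and 6.76% ± 0.0370 in WT of batch 2 (SD, n = 2 each), which is 7.43 times more in WT than in Xbp1KO. With 2 libraries a group an exact two-sided permutation test cannot give a p below 0.333, which it gave for both comparisons.

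Immunoglobulin genes took 60.5% to 69.4% of all counts in the WT libraries. They took 49.6% and 51.8% in Blimp1KO libraries and 23.5% and 19.1% in Xbp1KO libraries. The size of the drop therefore depends on what the members are set against. Per 100 counts outside immunoglobulin genes, members had 8.80 and 6.45 counts in Blimp1KO libraries, against 18.2 and 21.6 counts in WT libraries of batch 1, a WT mean 2.61 times that of Blimp1KO. The same measure gave 1.27 and 1.05 counts in Xbp1KO libraries, against 19.2 and 17.0 counts in WT libraries of batch 2, a WT mean 15.6 times that of Xbp1KO. On this measure too, neither knockout overlapped its WT group.

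Set against the heavy chain constant genes, with which they share a transcript, the members kept their proportion in Xbp1KO. There were 23.2 and 23.3 member counts per 100 constant gene counts in Xbp1KO libraries, against 22.9 and 23.1 in WT libraries of batch 2. Blimp1KO libraries had 19.9 and 15.0, against 17.6 and 21.1 in WT libraries of batch 1, and these groups overlapped. Against the kappa light chain V segments (Igkv), the picture differed between the knockouts. Members had 13.0 and 14.2 counts per 100 Igkv counts in Xbp1KO libraries, against 61.0 and 63.4 in WT libraries of batch 2, a WT mean 4.58 times that of Xbp1KO (exact two-sided permutation p = 0.333). Igkv itself took 7.50% and 5.96% of all counts in Xbp1KO libraries, against 11.1% and 10.6% in WT libraries of batch 2. The ratio to Igkv was 49.3 and 29.0 in Blimp1KO libraries, against 44.4 and 51.8 in WT libraries of batch 1, so these groups overlapped.

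**Figure D1:**
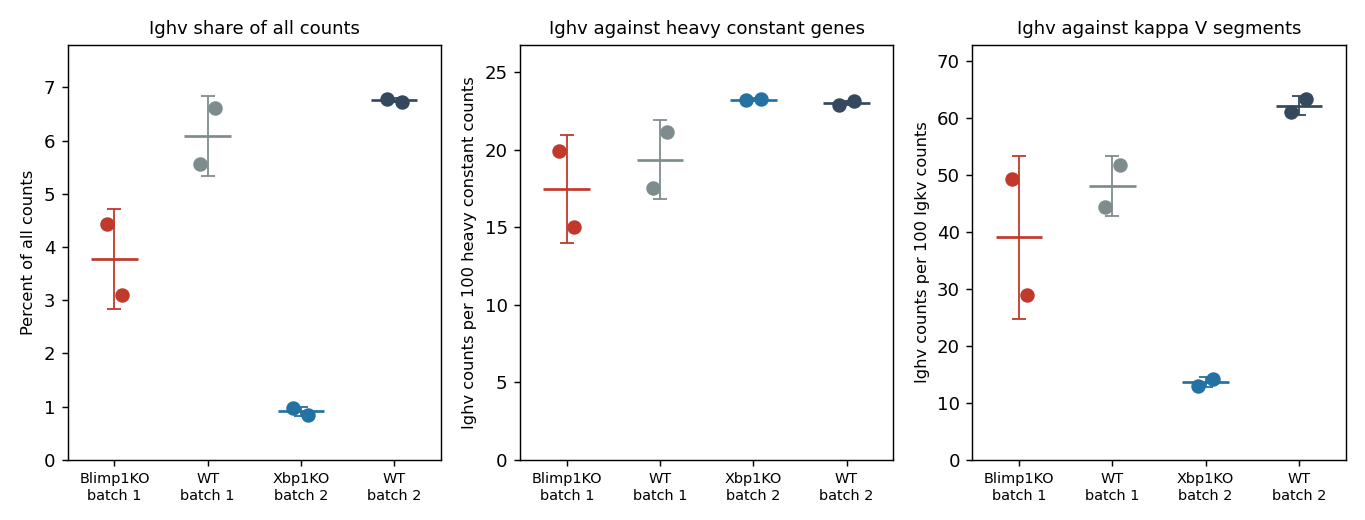
Summed counts of the 116 heavy chain V segments in each group, as percent of all counts (left), per 100 heavy chain constant counts (middle) and per 100 kappa V counts (right). Points are libraries, the horizontal line is the mean of 2 libraries and the bar its SD; Xbp1KO libraries sit at 0.974% and 0.847% on the left and near 13.0 and 14.2 on the right, below all WT libraries, but at 23.2 and 23.3 in the middle, level with WT of batch 2.

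In Xbp1KO, 83 of 116 members were lower than in WT of batch 2 and none was higher (edgeR's quasi-likelihood test, BH-adjusted p below 0.05). Among all 15073 genes tested, 7.7% were called, 5.06% lower and 2.63% higher. Beside the count of 0 higher, 0 members were higher at an unadjusted p below 0.05 in edgeR, and DESeq2 and limma-voom called 0 higher as well. The median log2 fold change of the members was -3.81, against 0.082 over all genes, and 113 of 116 estimates were below 0. The called members came from 14 of the 15 families, all but family 12. CPM in both Xbp1KO libraries lay below both WT libraries of batch 2 for 112 members, against 25.8% of all genes, and above them for 1 member, Ighv6-4, against 31.8% of all genes. The count fell to 49 without Xbp1KO replicate 1, 43 without Xbp1KO replicate 2 and 50 without WT replicate 3, to 22 without both Xbp1KO replicate 2 and WT replicate 4, and to 0 without both Xbp1KO replicate 1 and WT replicate 3. In that last fit 99 members were lower and 1 higher at an unadjusted p below 0.05, with a median log2 fold change of -3.79.

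The largest drops in Xbp1KO included some of the most used WT segments, such as Ighv1-53 and Ighv1-22. Use and drop were both read from the same WT libraries of batch 2, so they are not independent. Ighv5-17 and Ighv1-69, also described here, were not among the 5 most used segments of WT of batch 2. They still took 2.59% and 3.78% of its member counts on average, against 3.90% for Ighv1-26, the lowest of those 5. The drops of Ighv5-17 and Ighv1-69 were read from the same WT libraries, so the same dependence applies to them. Ighv1-53, among the most used segments in every group, had 294 and 128 CPM in Xbp1KO libraries, against 8245 and 6860 CPM in WT libraries of batch 2. Its log2 fold change was -5.16 ± 0.49 (SE, edgeR adjusted p = 0.00317). The drop exceeded the spread between replicates in both groups. Ighv5-17 had 50.7 and 39.6 CPM in Xbp1KO libraries, against 1037 and 2821 CPM in WT libraries of batch 2, a log2 fold change of -5.42 ± 0.53 (edgeR adjusted p = 0.00326). Ighv1-69 had 57.7 and 48.9 CPM in Xbp1KO libraries, against 1084 and 4474 CPM in WT libraries of batch 2, a change of -5.70 ± 0.70 on the log2 scale. In all 3 the Xbp1KO libraries lay far below both WT libraries of batch 2. Among other much used segments, Ighv1-9, Ighv1-26, Ighv1-64, Ighv1-80, Ighv8-8 and Ighv9-3 were called lower in Xbp1KO, at -4.82, -3.59, -4.04, -3.45, -4.76 and -5.02 on the log2 scale. Ighv2-3 (-2.05, edgeR adjusted p = 0.0794) and Ighv1-15 (-1.93, edgeR adjusted p = 0.196) were not.

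The lowest fold changes among called members were those of Ighv2-7 (-7.43), Ighv1-22 (-6.13), Ighv1-19-1 (-6.12), Ighv5-16 (-5.71), Ighv1-85 (-5.48), Ighv1-50 (-5.45) and Ighv9-2 (-5.27), beside those above. In some of them the WT libraries lay far apart. Ighv1-22 had 96.9 and 48.0 CPM in Xbp1KO libraries, against 9360 and 770 CPM in WT libraries of batch 2. Ighv5-16 had 31.9 and 15.5 CPM in Xbp1KO libraries, against 2233 and 250 CPM in WT libraries of batch 2. Ighv2-7 was near the floor in Xbp1KO, with 0.0214 and 0.0216 CPM, against 0.692 and 7.22 CPM in WT libraries of batch 2.

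The called members that fell least in Xbp1KO were Ighv2-5 (log2 fold change -2.12), Ighv11-2 (-2.25), Ighv8-2 (-2.48), Ighv11-1 (-2.55), Ighv1-5 (-2.55), Ighv6-6 (-2.67), Ighv1-62-3 (-2.74), Ighv2-2 (-2.82), Ighv9-4 (-3.04) and Ighv3-6 (-3.05). Ighv2-5 had 24.2 and 47.3 CPM in Xbp1KO libraries, against 138 and 173 CPM in WT libraries of batch 2. Ighv3-6, the most used segment of Xbp1KO replicate 1, had 371 and 121 CPM in Xbp1KO libraries, against 2457 and 1617 CPM in WT libraries of batch 2. Scaling the libraries to the Ighv total adds about 4.05 on the log2 scale to the members' fold changes in Xbp1KO, so these 10 estimates are positive on that scale by construction. On that scale 23 members were called higher and 9 lower.

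In Xbp1KO 3 members had an estimate above 0, and 0 of them were called. Ighv1-67 had 10.9 and 11.8 CPM in Xbp1KO libraries, against 11.6 and 3.36 CPM in WT libraries of batch 2 (log2 fold change 0.60 ± 0.50, edgeR adjusted p = 0.536; -0.034 without WT replicate 4). Ighv6-4 was below 1 CPM in all 4 libraries of batch 2. Ighv3-4 had 1.62 and 82.4 CPM in Xbp1KO libraries, against 44.8 and 13.5 CPM in WT libraries of batch 2, a value set by Xbp1KO replicate 2, since the log2 fold change was 0.53 with all libraries and -4.16 without it. Among segments singled out for their place or history, Ighv5-2, the counted segment nearest to the D segments and long known from early B cell repertoires, had 12.4 and 8.90 CPM in Xbp1KO libraries, against 52.1 and 13.2 CPM in WT libraries of batch 2 (edgeR adjusted p = 0.208). Ighv1-72 had 127 and 62.5 CPM in Xbp1KO libraries, against 1276 and 772 CPM in WT libraries of batch 2, a log2 fold change of -3.44 ± 0.46 (edgeR adjusted p = 0.00826).

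In Blimp1KO, 4 of 116 members were lower than in WT of batch 1 and none was higher (edgeR's quasi-likelihood test, adjusted p below 0.05), against 0.862% of all genes called, 0.285% lower and 0.577% higher. Most members pointed the same way. Their median log2 fold change was -1.41, against -0.0061 over all genes, 107 of 116 estimates were below 0, and 63 were lower and 0 higher at an unadjusted p below 0.05. CPM in both Blimp1KO libraries lay below both WT libraries of batch 1 for 80 members, against 22.1% of all genes. DESeq2 called 47 lower and 0 higher, and limma-voom 1 lower and 0 higher. The shares of all genes called, given above, belong to edgeR at an adjusted p below 0.05. They are no measure for the counts at an unadjusted p or by the other methods. No member was called without WT replicate 1, 2, 3 or 4, or without either pair of batch 2 libraries, although 74 were lower at an unadjusted p below 0.05 without either pair.

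The called members were Ighv11-2, its near copy Ighv11-1, Ighv8-2 and Ighv1-62-3. Ighv11-2 had 165 and 67.1 CPM in Blimp1KO libraries, against 1834 and 2102 CPM in WT libraries of batch 1. Its log2 fold change was -4.08 ± 0.51 (SE, edgeR adjusted p = 0.0324, with a range of 6.89e-21 to 0.227 over the alternatives). Ighv11-1 had 3.11 and 1.68 CPM in Blimp1KO libraries, against 18.1 and 21.2 CPM in WT libraries of batch 1, a change of -3.04 ± 0.40 (edgeR adjusted p = 0.0338). Both segments of family 11 thus fell, by more than the spread within either group.

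Ighv8-2 had 1.46 and 1.92 CPM in Blimp1KO libraries, against 7.94 and 14.4 CPM in WT libraries of batch 1, a log2 fold change of -2.73 ± 0.41 (edgeR adjusted p = 0.0412). Ighv1-62-3 had 9.37 and 10.02 CPM in Blimp1KO libraries, against 28.8 and 28.3 CPM in WT libraries of batch 1, a log2 fold change of -1.56 ± 0.25 (edgeR adjusted p = 0.0462). These groups did not overlap. With libraries scaled to the Ighv total, the estimates shifted by 1.49 on the log2 scale and Ighv1-62-3 stood at -0.041. Ighv11-1 and Ighv1-62-3 are close copies of more abundant segments, so their own level is uncertain. Ighv11-1 had 1.88 and 2.50 counts per 100 counts of Ighv11-2 in Blimp1KO libraries, against 0.985 and 1.01 in WT libraries of batch 1. Ighv1-62-3 had 1.84 and 2.79 counts per 100 of Ighv1-72 in Blimp1KO libraries, against 3.05 and 2.28 in WT libraries of batch 1.

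Next by p was Ighv1-4, with 104 and 136 CPM in Blimp1KO libraries, against 597 and 395 CPM in WT libraries of batch 1 (log2 fold change -2.04 ± 0.34, edgeR adjusted p = 0.0531). The widely used Ighv1-53 had 1736 and 1549 CPM in Blimp1KO libraries, against 4497 and 3900 CPM in WT libraries of batch 1 (-1.35 ± 0.42, edgeR adjusted p = 0.213). Both had Blimp1KO libraries below WT libraries without passing the test. Among the 9 members with an estimate above 0, Ighv3-4 had 810 and 41.4 CPM in Blimp1KO libraries, against 29.2 and 127 CPM in WT libraries of batch 1, with a log2 fold change of 2.44 ± 1.83 that became -0.87 without Blimp1KO replicate 1. Ighv6-4 had 2.27 and 2.47 CPM in Blimp1KO libraries, against 1.88 and 0.294 CPM in WT libraries of batch 1, and was the 1 member with both Blimp1KO libraries above both WT libraries, against 20.9% of all genes. Ighv5-12-4 (1 and 28 counts in Blimp1KO, against 2 and 0 in WT of batch 1), Ighv1-16 (9 and 0, against 1 and 0) and Ighv1-24 (0 and 1, against 0 and 0) had too few counts for a fold change.

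**Figure D2:**
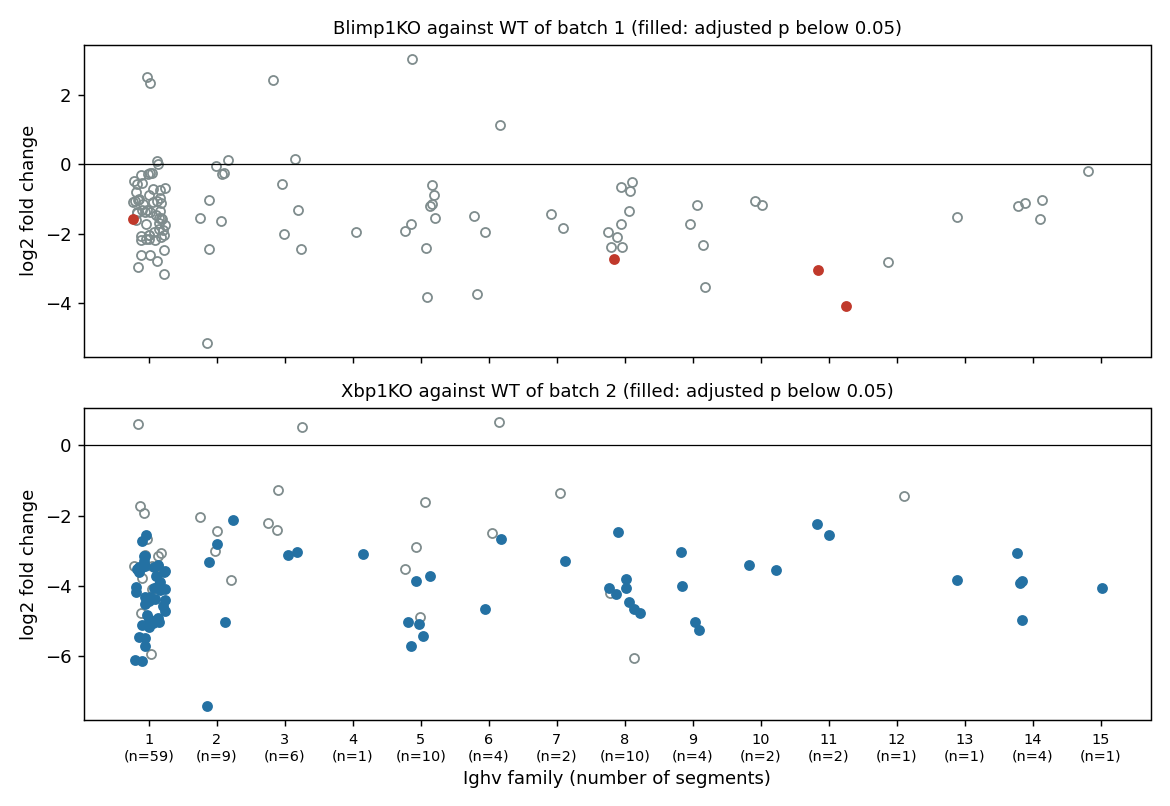
Log2 fold change of each of the 116 segments by family, Blimp1KO over WT of batch 1 and Xbp1KO over WT of batch 2. Points are segments, filled where the edgeR adjusted p was below 0.05; 4 points are filled for Blimp1KO and 83 for Xbp1KO, all of them below 0, around medians of -1.41 and -3.81.

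The Xbp1KO effect was larger than the Blimp1KO effect for 11 members in a direct test of the difference (edgeR's quasi-likelihood test, adjusted p below 0.05), and no member had the opposite difference. Of all genes, 1.17% had a difference called in this direction and 0.511% in the other. At an unadjusted p below 0.05 there were 70 and 2 members, limma-voom called 15 and 0, and DESeq2 60 and 2. For these rules the share of all genes is not given here. Of the 11, 9 belonged to family 1, which holds 59 of all 116 members. All 11 were called lower in Xbp1KO, as were 83 of the 116 members. In Blimp1KO 0 of the 11 were called, and 4 of the 116 members. The median difference over the members was -2.42 on the log2 scale, against 0.040 over all genes. Without 1 library at a time the count was 0 (without WT replicate 1 or 2), 4 (WT replicate 3), 6 (WT replicate 4), 7 (Xbp1KO replicate 1), 6 (Xbp1KO replicate 2) and 16 or 15 (Blimp1KO replicate 1 or 2), and it was 0 without either pair of batch 2 libraries, with 74 (without Xbp1KO replicate 2 and WT replicate 4) and 67 (without Xbp1KO replicate 1 and WT replicate 3) members at an unadjusted p below 0.05 in this direction.

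Ighv1-34 had the smallest p of the difference. It had 252 and 300 CPM in Blimp1KO libraries, against 546 and 545 CPM in WT libraries of batch 1, and 15.3 and 9.91 CPM in Xbp1KO libraries, against 360 and 458 CPM in WT libraries of batch 2. The log2 fold change was -0.98 ± 0.27 in Blimp1KO and -5.02 ± 0.31 in Xbp1KO, a difference of -4.04 ± 0.39 (edgeR adjusted p = 0.0104). Ighv2-9-1 had 541 and 1502 CPM in Blimp1KO libraries, against 887 and 971 CPM in WT libraries of batch 1, and 36.3 and 32.4 CPM in Xbp1KO libraries, against 774 and 1480 CPM in WT libraries of batch 2. Its difference was the largest of the 11, at -5.17 ± 0.75 (edgeR adjusted p = 0.0286). Ighv1-58, Ighv1-64 and Ighv1-56 differed by -3.59 ± 0.42, -2.74 ± 0.39 and -4.12 ± 0.58. In each of these segments the Xbp1KO libraries held the lowest values of the 8.

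Usage is the share of a segment or family among all member counts of its library, so it does not carry the overall drop. Family 1 was the most used in every library, with 52.6% and 55.1% in Blimp1KO, against 61.3% and 52.8% in WT of batch 1. It took 60.2% and 56.2% in Xbp1KO, against 69.8% and 62.3% in WT of batch 2. The Xbp1KO libraries lay below their WT group by 7.83 percentage points on average (exact two-sided permutation p = 0.333, the smallest possible), while Blimp1KO and WT of batch 1 overlapped. Without WT replicate 1 the Blimp1KO difference turned from -3.17 to 1.05 percentage points.

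Families 2, 3 and 14 had larger shares in both knockouts. Family 2 took 14.8% in both Blimp1KO libraries, against 5.83% and 12.6% in WT of batch 1, and 8.64% and 12.4% in Xbp1KO, against 4.67% and 5.99% in WT of batch 2. Family 3 took 7.68% and 5.03% in Blimp1KO, against 3.93% and 4.50% in WT of batch 1, and 7.98% and 5.98% in Xbp1KO, against 3.28% and 2.83% in WT of batch 2. Family 14 took 2.90% and 3.02% in Blimp1KO, against 2.75% and 2.10% in WT of batch 1. In Xbp1KO it took 1.49% and 1.55%, against 1.44% and 1.12% in WT of batch 2, a smaller shift. In none of these families did the groups of a batch overlap. Such a lack of overlap was common among the families. In Blimp1KO it was also seen for family 8 (lower) and family 15 (higher). In Xbp1KO it was also seen for family 1 (lower) and families 4 and 7 (higher). The shares of families 11 and 12 lay on opposite sides of WT in the knockouts.

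**Figure D3:**
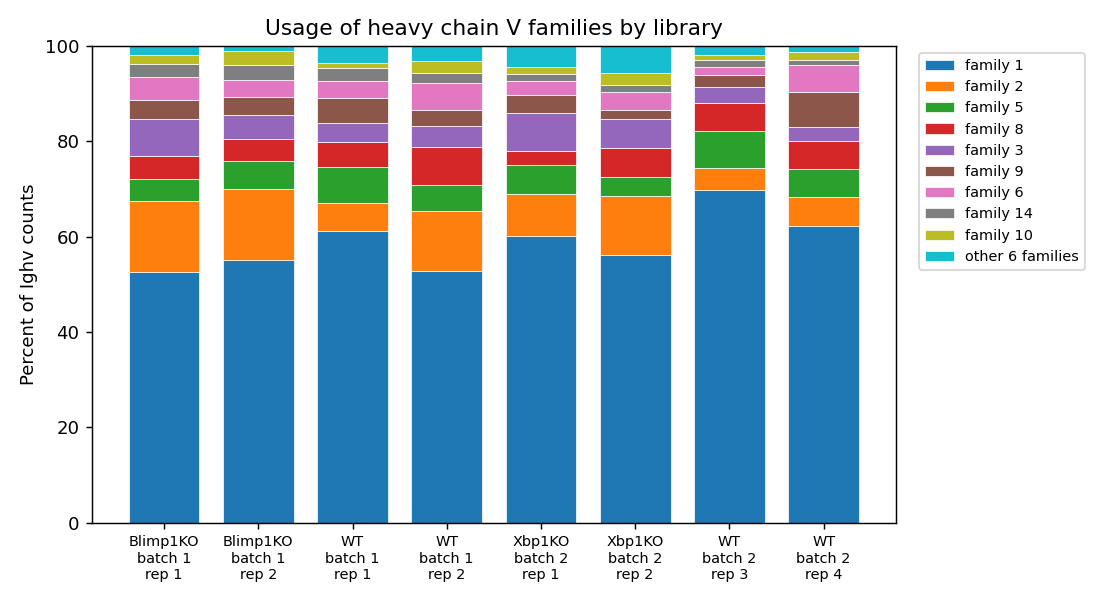
Share of each segment family among heavy chain V counts, in percent, 1 stacked bar per library. Family 1 takes 52.6% to 69.8% in all 8 libraries, and family 2 takes 14.8% in both Blimp1KO libraries, against 5.83% and 12.6% in WT of batch 1.

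Family 11 has 2 members and nearly all of its counts are Ighv11-2. This family took 0.402% and 0.214% of member counts in Blimp1KO libraries, against 1.88% and 1.94% in WT libraries of batch 1. In Xbp1KO libraries it took 2.32% and 3.28%, against 0.927% and 0.635% in WT libraries of batch 2. Ighv11-2 alone averaged 0.301% in Blimp1KO and 1.89% in WT of batch 1, which is 6.26 times more in WT, and 2.68% in Xbp1KO and 0.740% in WT of batch 2, which is 3.62 times more in Xbp1KO. The groups did not overlap in either batch.

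The share and the level of Ighv11-2 went different ways in Xbp1KO. Its level fell in Xbp1KO, with 121 and 126 CPM in Xbp1KO libraries, against 738 and 430 CPM in WT libraries of batch 2 (log2 fold change -2.25 ± 0.47, edgeR adjusted p = 0.0346), by less than the members' median of -3.81. Its level ran from 67.1 to 165 CPM over the 4 knockout libraries and differed more between the WT groups, with 738 and 430 CPM in WT of batch 2, against 1834 and 2102 CPM in WT of batch 1. The test of the difference between the 2 knockout effects on its level did not pass (1.84 ± 0.64 on the log2 scale, edgeR adjusted p = 0.213).

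Ighv12-3, the single member of family 12, showed the same order at a lower level. It took 0.0601% and 0.0220% of member counts in Blimp1KO libraries, against 0.160% and 0.0602% in WT libraries of batch 1, where the closest libraries were almost equal. In Xbp1KO libraries it took 0.678% and 0.945%, against 0.177% and 0.0769% in WT libraries of batch 2, a mean 6.39 times that of WT. Its level was 25.2 and 7.08 CPM in Blimp1KO libraries, against 158 and 66.1 CPM in WT libraries of batch 1 (edgeR adjusted p = 0.16), and 36.8 and 38.0 CPM in Xbp1KO libraries, against 149 and 54.8 CPM in WT libraries of batch 2 (edgeR adjusted p = 0.281). Beside these segments, Ighm, the constant gene of IgM, had 35978 and 24853 CPM in Blimp1KO libraries, against 341895 and 161202 CPM in WT libraries of batch 1, and 7330 and 6422 CPM in Xbp1KO libraries, against 168077 and 153679 CPM in WT libraries of batch 2. Its log2 fold change was -3.05 ± 0.59 in Blimp1KO (edgeR adjusted p = 0.0736) and -4.55 ± 0.63 in Xbp1KO (edgeR adjusted p = 0.0093). Whether IgM transcripts have a part in the values of Ighv11-2 was not tested.

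**Figure D4:**
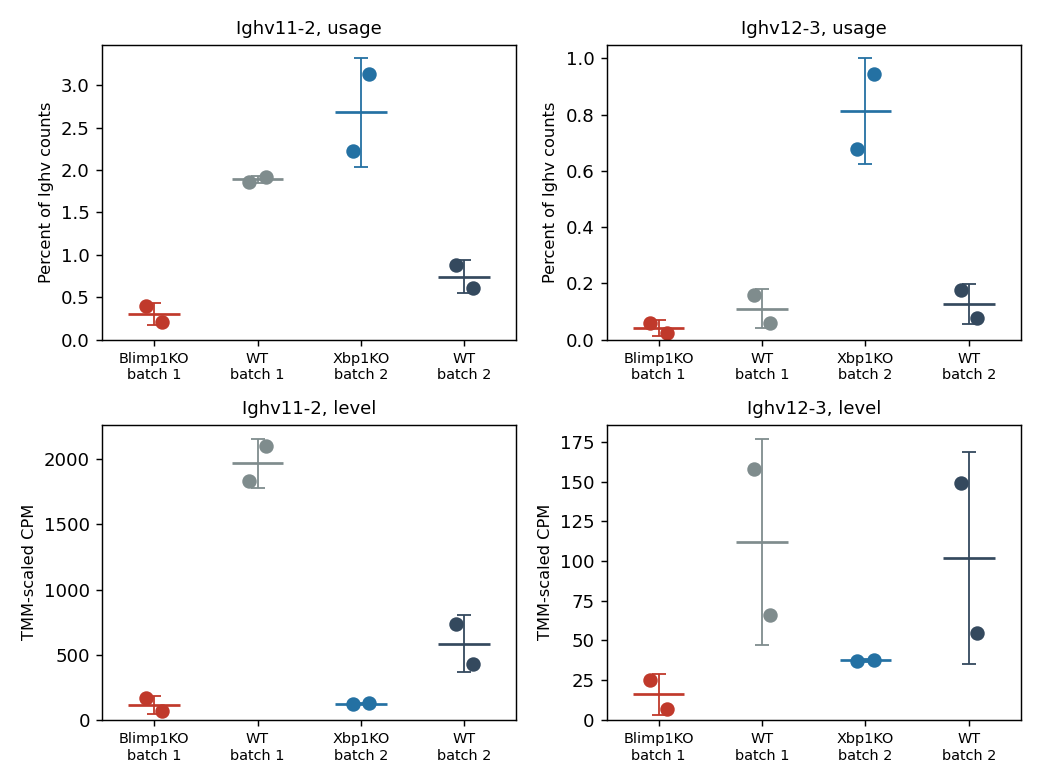
Usage in percent of heavy chain V counts (top) and level in TMM-scaled CPM (bottom) of Ighv11-2 (left) and Ighv12-3 (right) by group. Points are libraries, lines are means of 2 libraries and bars their SD; usage of Ighv11-2 averages 0.301% in Blimp1KO and 1.89% in WT of batch 1, and 2.68% in Xbp1KO and 0.740% in WT of batch 2.

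The other families with 1 member were Ighv4-1, Ighv13-2 and Ighv15-2. Ighv4-1 had 59.4 and 32.8 CPM in Xbp1KO libraries, against 552 and 232 CPM in WT libraries of batch 2 (log2 fold change -3.09, edgeR adjusted p = 0.0341). Ighv13-2 and Ighv15-2 also fell in Xbp1KO, by 3.83 and 4.06 on the log2 scale. In Blimp1KO their estimates were -1.95, -1.51 and -0.19 and none was called. By family, the members called lower in Xbp1KO were 44 of 59 in family 1, 5 of 9 in family 2, 2 of 6 in family 3, 6 of 10 in family 5 and 8 of 10 in family 8, and all 4 members of families 9 and 14.

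The repertoire was more evenly spread in each knockout than in WT of its own batch. The effective number of segments, the exponential of the Shannon entropy of the shares, was 57.8 and 58.9 in Blimp1KO libraries, against 52.2 and 55.0 in WT libraries of batch 1. It was 52.5 and 57.9 in Xbp1KO libraries, against 45.7 and 44.5 in WT libraries of batch 2. Neither pair of groups overlapped (exact two-sided permutation p = 0.333 each, the smallest possible). The WT groups also differed, with a mean of 53.6 in batch 1 and 45.1 in batch 2. Xbp1KO replicate 1 lay below WT replicate 2 of batch 1. The most used 17 and 17 segments held 50% of member counts in Blimp1KO libraries, against 15 and 14 in WT of batch 1, and 14 and 16 did in Xbp1KO libraries, against 12 and 11 in WT of batch 2. The differences, 4.78 in Blimp1KO and 10.2 in Xbp1KO, kept their sign when counts were thinned to the smallest library or taken per base of gene length.

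**Figure D5:**
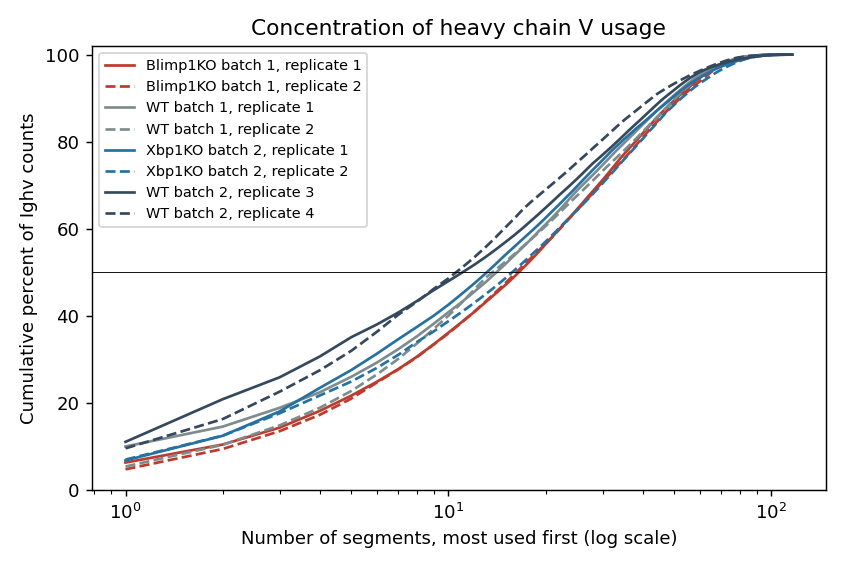
Cumulative percent of heavy chain V counts against the number of segments, most used first, on a log axis, 1 line per library. The thin line marks 50%, which the Blimp1KO libraries reach at 17 segments and the WT libraries of batch 2 at 12 and 11 segments.

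The leading segment changed from library to library. It was Ighv2-3 (6.36%) and Ighv1-53 (4.81%) in Blimp1KO replicates 1 and 2, against Ighv1-9 (10.1%) and Ighv2-3 (5.45%) in WT replicates 1 and 2. In Xbp1KO replicates 1 and 2 it was Ighv3-6 (6.85%) and Ighv1-15 (7.04%), against Ighv1-22 (11.1%) and Ighv1-53 (9.63%) in WT replicates 3 and 4. Per base of gene length, the highest mean shares over the 8 libraries were those of Ighv1-53 (5.53%), Ighv1-26 (4.42%), Ighv2-3 (3.77%) and Ighv3-6 (3.76%).

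Members varied far more between libraries of 1 group than other genes did. Where the mean log2 CPM reached 3 (99 members and 7378 other genes), the median absolute log2 difference between the 2 libraries was 0.65 for members and 0.38 for other genes in Blimp1KO, and 0.63 and 0.11 in WT of batch 1. It was 0.72 for members and 0.18 for other genes in Xbp1KO, and 0.87 and 0.14 in WT of batch 2. A difference of over 1 on the log2 scale, that is more than 2-fold, was seen for 28.3% of members in Blimp1KO, 35.4% in WT of batch 1, 43.4% in Xbp1KO and 41.4% in WT of batch 2, and for 1.45% to 9.43% of other genes. Ighv3-4 had the widest gaps, 5.65 on the log2 scale between the Xbp1KO libraries and 4.29 between the Blimp1KO libraries. In WT of batch 2, Ighv1-20 (597 and 38.7 CPM) and Ighv1-22 (9360 and 770 CPM) differed by 3.95 and 3.60, and in Blimp1KO Ighv8-4 (36.2 and 3.02 CPM) by 3.57.

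Libraries of a group did not share their usage more closely than other libraries in all cases. The overlap of 2 libraries, the sum over members of the smaller of their shares, was 82.5% between the Blimp1KO libraries, 72.5% between the WT libraries of batch 1, 70.7% between the Xbp1KO libraries and 68.1% between the WT libraries of batch 2. It ran between 62.5% and 78.4% for the 8 pairs of a knockout and a WT library of the same batch. WT libraries of different batches overlapped by 65.5% to 70.9%.

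Few members were called different between the WT groups of the 2 batches, but their estimates were widely spread. The interquartile range of the members' log2 fold changes was 1.55 between the WT groups, against 1.17 in Blimp1KO and 1.60 in Xbp1KO. The low number of calls therefore does not show that the WT groups were alike. In WT of batch 2, 4 of 116 members were lower and 0 higher than in WT of batch 1 (edgeR's quasi-likelihood test, adjusted p below 0.05), against 2.81% of all genes called, 0.843% lower and 1.96% higher. Both WT libraries of batch 2 lay below both of batch 1 for 42 members (36.2%), a share close to the 35.3% of all genes, and above them for 15 members (12.9%), against 32.3% of all genes. At an unadjusted p below 0.05, 24 were lower and 8 higher. DESeq2 called 17 lower and 4 higher, and limma-voom 2 lower and 0 higher. For these rules the share of all genes is not given here. Ighv7-4 had 22.3 and 21.2 CPM in WT of batch 2, against 87.1 and 126 CPM in WT of batch 1 (edgeR adjusted p = 0.0484). Ighv6-6 had 454 and 432 CPM in WT of batch 2, against 2041 and 1621 CPM in WT of batch 1 (edgeR adjusted p = 0.0332). The others were Ighv1-31 and Ighv8-12, at log2 fold changes of -1.51 and -1.97. Leaving out any of the 4 WT libraries or either Xbp1KO library brought the count to 0 or 1, and leaving out a Blimp1KO library to 11 or 12. Batch and animals cannot be told apart here.

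Along the array, the 116 members were split into 4 runs of 29 from the D-proximal end. The third run, from Ighv1-19-1 outward (chr12:114704147-115359433 by RefSeq on GRCm38.p6), took 28.7% and 26.7% of member counts in Xbp1KO libraries, against 44.3% and 33.9% in WT libraries of batch 2. In batch 1 it took 26.3% and 25.8% in Blimp1KO libraries, against 26.5% and 26.2% in WT libraries. The nearest run took 20.1% and 22.4% in Xbp1KO libraries, against 15.3% and 14.4% in WT libraries of batch 2, and 24.4% and 24.96% in Blimp1KO libraries, against 20.5% and 22.9% in WT libraries of batch 1. The second run took 28.0% and 29.3% in Xbp1KO libraries, against 19.7% and 23.8% in WT libraries of batch 2, and 26.4% and 24.5% in Blimp1KO libraries, against 28.9% and 24.4% in WT libraries of batch 1. The larger shares in Xbp1KO were therefore found in both of the nearer runs. Ighv1-53 and Ighv1-22, with their high values in WT of batch 2, both lie in the third run.

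Genes that work with the V segments were followed as fixed lists. Of the 8 heavy chain constant genes, 6 were lower in Xbp1KO and 0 higher, with a median log2 fold change of -3.54, near the -3.81 of the members. Igha, the constant gene of IgA, fell by 3.96, while Ighg3 (-3.44, edgeR adjusted p = 0.111) and Ighd (0.93, edgeR adjusted p = 0.373) were not called. In Blimp1KO 0 of the 8 were called, with a median of -1.20. Of the 5 light chain constant genes and J chain, 0 were called in either knockout; Igkc, the kappa constant gene, had a log2 fold change of -1.07 in Blimp1KO (edgeR adjusted p = 0.452) and -2.04 in Xbp1KO (edgeR adjusted p = 0.073).

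Genes for V(D)J recombination, class switching and hypermutation (14 tested) had 0 calls in either knockout, with medians of -0.035 in Blimp1KO and 0.27 in Xbp1KO. Of the 15 factors that bind the octamer of V promoters or the heavy chain enhancers, 0 were called in Blimp1KO and 1 was lower in Xbp1KO. That was Irf8, with 22.4 and 26.2 CPM in Xbp1KO libraries, against 46.2 and 41.8 CPM in WT libraries of batch 2 (log2 fold change -0.86 ± 0.20, edgeR adjusted p = 0.0483). Ets1 had an estimate of 1.11 ± 0.19 in Blimp1KO (edgeR adjusted p = 0.0533).

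Of the markers of other cell types, few passed the test. Mature B cell markers (10 tested) summed to 1283 and 1796 CPM in Blimp1KO libraries, against 633 and 602 CPM in WT libraries of batch 1, and to 856 and 795 CPM in Xbp1KO libraries, against 561 and 491 CPM in WT libraries of batch 2. In batch 2 most of the sum was Cd79b, with 595 and 532 CPM in Xbp1KO libraries, against 311 and 283 CPM in WT libraries. The markers had a median log2 fold change of 1.46 in Blimp1KO and 0.37 in Xbp1KO. In Blimp1KO 1 of them was called higher, Spib, and in Xbp1KO 1, Cr2. None of these mature B cell markers was at 0 in any library. B progenitor markers (9 of 10 tested) summed to 90.4 and 82.5 CPM in Blimp1KO libraries, against 156 and 190 CPM in WT libraries of batch 1, and to 125 and 180 CPM in Xbp1KO libraries, against 192 and 153 CPM in WT libraries of batch 2, with Vpreb2 at 0 in 2 libraries. Most of these sums was Cd93, with 77.0 and 105 CPM in Xbp1KO libraries, against 154 and 125 CPM in WT libraries of batch 2. The sums thus do not stand for the list, as the tested markers had a median log2 fold change of -0.045 in Blimp1KO and 1.39 in Xbp1KO. In Xbp1KO 1 of them was called higher, Kit (log2 fold change 1.56, edgeR adjusted p = 0.0263), and in Blimp1KO 0. T and NK cell markers summed to 9.53 to 30.1 CPM, with 0 calls. Dendritic cell markers summed to 65.5 to 150 CPM, with 0 calls in Blimp1KO and 1 higher in Xbp1KO, Ccr9 (log2 fold change 1.53, edgeR adjusted p = 0.0118). Neutrophil and erythroid markers had 0 calls in either knockout. The T and NK cell markers Cd3e, Cd3d, Cd8a and Ncr1 and the dendritic cell marker Cd209a were at 0 in some libraries. Their part in the V segment values was not tested.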

How the data were processed

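The authors deposited a table of raw counts per Entrez gene for 8 libraries; the submitters' processing notes name Subread, featureCounts, limma and GRCm38 (mm10), with no versions, and the handling of multi-mapping reads and of strand is not given in the sources used here. The deposited log2 FPKM files hold no Ighv row and were not used. IDs were named from RefSeq (GRCm38.p6): 25275 of 27179 matched, and the 1904 without a symbol held 0.281% to 1.49% of counts.

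All 15073 genes passing filterByExpr (minimum count 10) were fitted in R 4.3.3 with edgeR 4.0.16 (quasi-likelihood, TMM, 4 group means, 4 residual degrees of freedom, called at an adjusted p below 0.05); SE is the estimate divided by the root of F. Shares and diversity come from raw counts. DESeq2 1.42.0, limma-voom (limma 3.58.1), other scalings, filters, left-out libraries and a replicate block were alternatives. The share of all genes called is given for the main edgeR fit only, not for the alternatives. With 2 libraries a group, precision is limited by their number and, for members with few counts, by counting error. The scripts were tested on simulated data.

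Members and lists were chosen with earlier results of these data known. Named segments are the 5 most used per group, up to 10 highest and 10 lowest called fold changes without overlap per knockout (or 5 smallest p), the 5 smallest p of the difference, 5 fixed segments (Ighv7-1 was no member), single-member families, those nearest the threshold and the 5 with the widest replicate gaps. Of the lists' genes, up to 3 with the smallest p per knockout were eligible; a few others were named after their values were seen.

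Replicate numbers 1 and 2 are shared by Blimp1KO and WT of batch 1, but no label says that they pair animals.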

Additional observations from a re-analysis of the deposited data

Results flagged for a closer look

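Among the members, 11 had a larger drop in Xbp1KO than in Blimp1KO by the direct test of the difference (edgeR's quasi-likelihood test, adjusted p from 0.0104 to 0.0417). The Xbp1KO effect minus the Blimp1KO effect, on the log2 scale, was -4.04 for Ighv1-34, -3.59 for Ighv1-58, -2.74 for Ighv1-64, -4.12 for Ighv1-56 and -5.17 for Ighv2-9-1. It was -3.89 for Ighv1-76, -3.32 for Ighv1-75, -3.87 for Ighv1-52, -4.28 for Ighv5-17, -3.81 for Ighv1-53 and -2.04 for Ighv1-31. The last of these, Ighv1-31, was also lower in WT of batch 2 than in WT of batch 1.

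Family 11 and family 12 usage moved in opposite directions in the knockouts, with every knockout library on 1 side of its WT group. Family 11 took 1.60 percentage points less of the member counts in Blimp1KO than in WT of batch 1 (a difference of -1.60), and 2.02 points more in Xbp1KO than in WT of batch 2. Ighv11-2 alone differed by -1.59 points in Blimp1KO and 1.94 points in Xbp1KO. Ighv12-3, and so family 12, differed by -0.0692 points in Blimp1KO and 0.684 points in Xbp1KO. In batch 1 its closest libraries were almost equal, at 0.0601% in Blimp1KO replicate 1 and 0.0602% in WT replicate 2. The pattern was not particular to Ighv11-2 and Ighv12-3. They were among 8 members with lower usage in Blimp1KO and higher usage in Xbp1KO without overlap, and 6 members had the reverse. Of the 116 members, 7 had higher usage and 4 lower usage in both knockouts without overlap, and 40 overlapped WT in both. These counts alone do not show that opposite shifts were more common than shifts in the same direction. These differences between knockouts in usage were not tested.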

How the results depend on the processing

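The limits are 2 libraries a group, the close copies among segments, and large differences between replicates, which widen the spread. The members called lower in Xbp1KO numbered 82 to 111 under RLE factors, TMM over non-immunoglobulin genes, no filter, DESeq2, limma-voom, the replicate block and all 4 WT libraries, and 73 with batch 2 alone. Scaled to the Ighv total, 32 were called in Xbp1KO (23 higher, 9 lower), 17 in Blimp1KO (9 higher, 8 lower), 23 for the difference and 7 between WT batches. Without a filter, 43 were called in Blimp1KO, 71 for the difference and 26 between WT batches; with DESeq2, 47, 62 and 21; with limma-voom, 1 in Blimp1KO and 2 between WT batches. With batch 1 alone, 0 were called in Blimp1KO. Leaving out both Xbp1KO replicate 2 and WT replicate 4, gave 0 in Blimp1KO, 22 in Xbp1KO, 0 for the difference and 0 between WT batches, and leaving out both Xbp1KO replicate 1 and WT replicate 3 gave 0 in each of the 4; both choices were made after seeing the data. Fewer libraries enter these last fits; for the others the cause was not tested.

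Leaving out 1 library at a time gave 0 to 5 members called in Blimp1KO, 43 to 90 in Xbp1KO, 0 to 16 for the difference and 0 to 12 between WT batches. The Ighv share of all counts differed by -2.98 to -1.65 percentage points in Blimp1KO and by -5.91 to -5.79 in Xbp1KO, and the share of immunoglobulin counts by -2.78 to 0.158 and by -6.83 to -6.20. The effective number differed by 3.35 to 6.22 in Blimp1KO and by 7.44 to 12.9 in Xbp1KO. The family 1 share differed by -7.39 to 1.05 points in Blimp1KO and by -11.6 to -4.06 in Xbp1KO; with each segment counted once it was 0.887 in Blimp1KO.

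Same-numbered Blimp1KO and WT libraries of batch 1 deviated together with r = 0.218 over all genes and -0.0372 over the members. With the replicate block, 6 members were called in Blimp1KO, 82 in Xbp1KO, 11 for the difference and 2 between WT batches. No paired analysis was possible for Xbp1KO and WT of batch 2 because their labels share no replicate number.

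Of the named segments' fold changes, 448 alternatives kept direction and call, 182 lost the call, 6 gained it and 19 turned sign, 10 of these by the shift that scaling to the Ighv total gives all members. Scaled to the Ighv total, the Xbp1KO values became 2.00 for Ighv2-5, 1.86 for Ighv11-2, 1.65 for Ighv8-2, 1.57 for Ighv11-1, 1.39 for Ighv1-5, 1.37 for Ighv6-6, 1.38 for Ighv1-62-3, 1.25 for Ighv2-2, 0.96 for Ighv9-4 and 0.93 for Ighv3-6. In Xbp1KO, Ighv1-67 became -0.034 without WT replicate 4 and -0.095 without both, with 1.75 as the highest value without 1 library; Ighv6-4 became -1.40 against all 4 WT libraries; Ighv3-4 became -1.31 with limma-voom, -0.35 against all 4 WT libraries, -4.16 without Xbp1KO replicate 2 (up to 1.63 without another library), -0.11 without WT replicate 4 and -4.80 without both. In Blimp1KO, Ighv3-4 became -0.87 without Blimp1KO replicate 1, and 3.87 at most without another library.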
